A study of Mus musculus with 4 samples.

Results

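The interferon-stimulated and antigen presentation genes were followed in sorted basal keratinocytes of the embryonic mouse epidermis (E16.5). The set held 34 listed genes, taken by symbol from a list chosen with earlier results of these data known. Of these, 32 had a probe set annotated with a single gene symbol on the array, out of 18193 genes so annotated. Each gene was read from its probe set with the highest mean log2(signal + 1) over the 4 arrays. Isg15 and Ifi44, with no probe set annotated to that gene alone in the table used, were not analysed here. The cKO group (2 arrays) came from embryos with both Srf alleles floxed, the ROSA26 YFP reporter and K14-Cre, and the het group (2 arrays) from embryos with 1 floxed Srf allele and the same reporter and Cre. The design text calls the het genotype WT, and the strain label of the het samples reads only Rosa26, so their genotype rests on the design text and the titles. K14-Cre is active in keratinocytes of the basal layer, and both groups carried it. Cells were sorted on α6 integrin and YFP. Each title ends in a number that is shared by 1 array of either group: Ko_1210 and het_1210 are called the first pair here, and KO_1261 and het_1261 the second, and within a group the values are given in that order. No label says what the numbers mark, whether they pair animals or whether embryos were pooled, so the p-values measure only the spread between these samples, which may be technical.

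Interferons are secreted proteins that warn cells of viral infection. Type I interferons act through the receptor chains Ifnar1 and Ifnar2 and the kinases Jak1 and Tyk2 on a complex that includes Stat2 and Irf9 and binds the interferon-stimulated response element (ISRE), while interferon gamma acts on genes that carry the gamma-activated site (GAS). Their targets include RNA sensors, antiviral enzymes and the class I pathway, in which the immunoproteasome cuts peptides, the Tap transporter carries them into the endoplasmic reticulum, and tapasin loads them onto a class I heavy chain paired with β2-microglobulin. Srf, the gene deleted here, encodes serum response factor, which binds the CArG box.

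The knockout showed in the targeted transcript. Srf had a signal of 47.9 and 80.4 on the cKO arrays, against 834 and 1108 on the het arrays, and the groups did not overlap. Its difference was -3.93 ± 0.26 (SE, cKO minus het, log2), with an adjusted p in limma of 1.18e-12 with the block described next and of 1.0 without it. Of the basal keratinocyte markers 7 of 7 were above the filter on low signals, Krt14 among them at 53068 and 36033 in cKO and 59598 and 35520 in het, and none of them passed the test. All 8 dermal fibroblast markers were above the filter too, so transcripts of both cell types were measured. Dcn, the one with the highest signal, was level at 21841 and 18828 in cKO and 19907 and 19073 in het. However, 6 of the 8 were lower in cKO, with a median difference of -0.63 over the list. Pdgfra went the other way, at 91.2 and 155 in cKO and 58.3 and 84.4 in het, and did not pass. The pairs also differed in measures that do not come from the cells: the poly-A spike-ins were 2.52-fold higher in cKO and 2.45-fold higher in het in the first pair than in the second, at 12 of 12 probe sets. Each difference between the groups is therefore given overall and within each pair, and the limma test without a block is set beside the same fit with the pair as a block. Spike-ins also differed between the groups, which the block cannot remove. Within the pairs, cKO over het was 0.88 and 0.86 for the poly-A spike-ins and 0.83 and 0.87 for the hybridization spike-ins. The block leaves 1 residual degree of freedom, so that fit leans on the prior variance taken from all probe sets. Its SE and adjusted p are the ones printed unless stated otherwise, and rose and fell are used for what passed in it. The fit without a block was the main test chosen, and the block an alternative to it. In the fit without a block 0 of 11055 tested genes passed.

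Promoter sequences were searched for the 3 motifs named above, none of which was held by all members. RefSeq windows of 300 bases (250 before to 50 after a start, GRCm38.p6) were found for 29 of the 34 listed genes. The ISRE core, searched as GAAANNGAAA on both strands, was present in 14 of these 29 genes (48.3%), against 3.99% of all 27025 genes and 3.44% of all windows. The GAS, searched as TTCNNNGAA on both strands, was present in 7 of the 29 genes (24.1%), against 9.55% of all genes and 8.3% of all windows. The CArG box bound by serum response factor was present in 0 of the 29, against 1.81% of all genes, which says only that these letters are not in these windows. The GAS and ISRE letters overlapped in Bst2. Among the 17 members that passed the filter, 8 held the ISRE core, and their stretches are shown with the core in capitals. In Ddx58 and Rsad2 the core runs on the opposite strand and reads as TTTC repeats.
Ifih1 (chr2:62646206-62646238, minus strand): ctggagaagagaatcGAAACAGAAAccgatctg
Ddx58 (chr4:40239799-40239838, minus strand): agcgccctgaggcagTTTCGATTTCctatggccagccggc
Oas1a (chr5:120907518-120907557, minus strand): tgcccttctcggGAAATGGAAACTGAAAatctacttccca
Rsad2 (chr12:26456548-26456587, minus strand): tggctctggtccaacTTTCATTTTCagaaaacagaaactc
Bst2 (chr8:71537575-71537614, minus strand): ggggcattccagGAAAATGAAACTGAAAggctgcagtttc
B2m (chr2:122147533-122147572, plus strand): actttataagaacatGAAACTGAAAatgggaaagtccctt
Igtp (chr11:58199507-58199546, plus strand): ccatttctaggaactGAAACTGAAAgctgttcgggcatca
Irgm1 (chr11:48871423-48871462, minus strand): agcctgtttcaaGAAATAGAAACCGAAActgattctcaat

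No member passed the test, and with so few genes called in all, this count does not set the members apart from other genes. Of the 32 genes, 17 lay above the filter, a mean signal of 65.9 over the 4 arrays, and were tested; the other 15 lay below it. In limma without a block, 0 of the 17 passed an adjusted p of 0.05, as did 0% of all 11055 tested genes, and 0 of the 17 had an unadjusted p under 0.05 (0.597% of all tested genes). With the pair as a block 0 of the 17 passed, where 0.868% of all tested genes did, and 3 had an unadjusted p under 0.05 (8.86% of all tested genes): Tap1 higher, and Ifi35 and H2-K1 lower. Over all tested genes 0.253% were called higher and 0.615% lower. With the block and a robust prior 0 of the 17 passed, where 0.452% of all tested genes did (0.118% higher and 0.335% lower), and 2 had an unadjusted p under 0.05 (8.61% of all tested genes). With the block and no variance trend 0 of the 17 passed, as did 0% of all tested genes, and 1 had an unadjusted p under 0.05 (5.71% of all tested genes). Of the 17, 7 were higher and 10 lower in cKO, and the split became 9 and 8 when arrays were centred on their median. The median difference of the 17 was -0.12 on the log2 scale, where that of all tested genes was -0.02. Within the first pair these medians were -0.27 for the members and -0.03 for all tested genes, and within the second pair they were 0.04 and -0.02. The sign of the difference was opposite in the 2 pairs for 8 of the 17 and the same for 9, where 56% of all tested genes kept 1 sign.

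**Figure D1:**
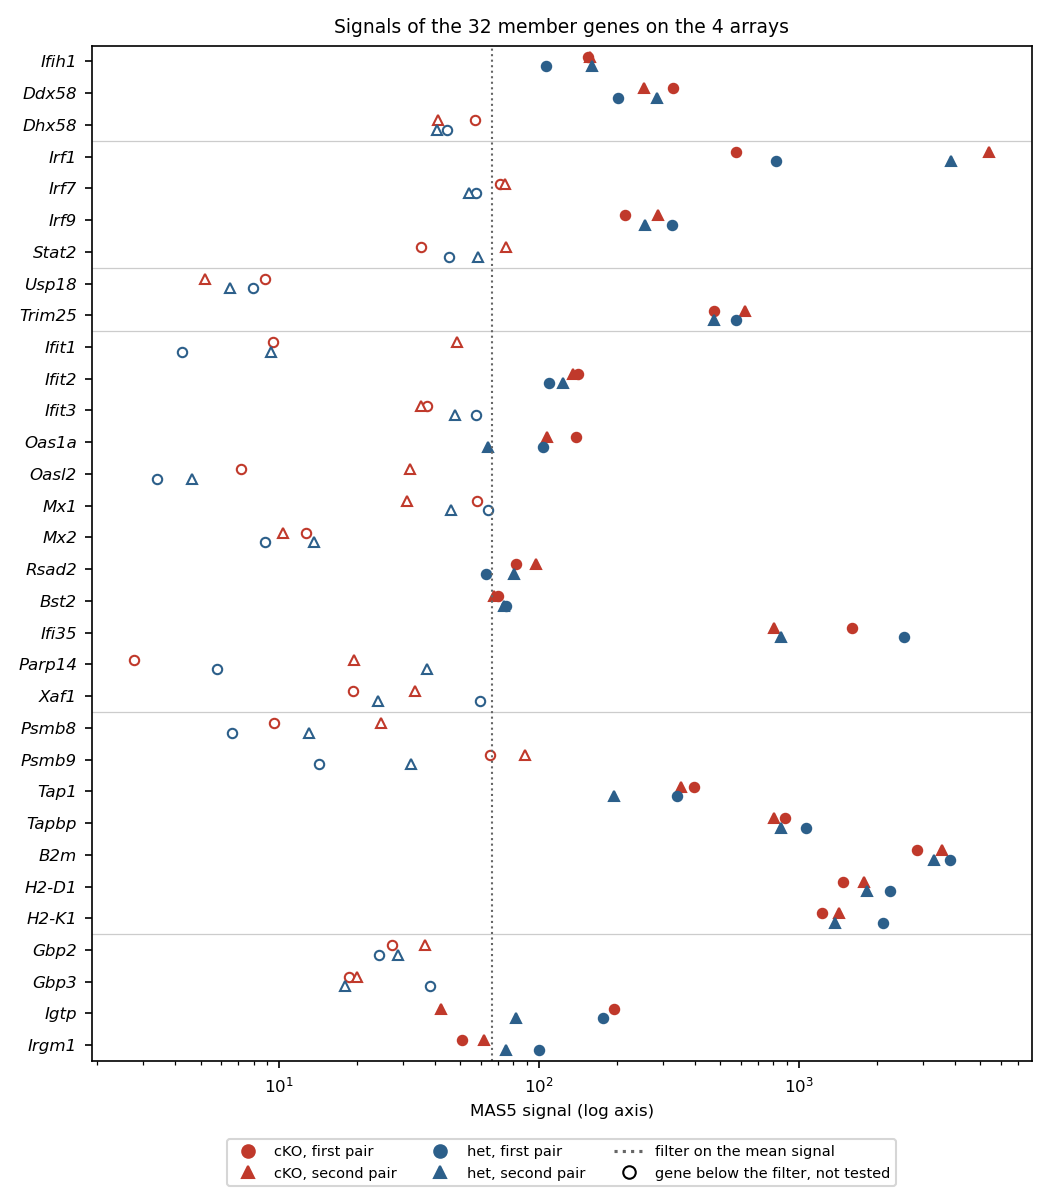
MAS5 signal (log axis) of the 32 members on each array, in rows by role from RNA sensors at the top to GTPases at the bottom; red, cKO; blue, het; circles, first pair; triangles, second pair; open symbols, genes below the filter on the mean signal (dotted line, 65.9). The red and blue points of most rows overlap, and Irf1 is split by pair rather than by group.

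In 7 of the 17 tested members the cKO and het arrays did not overlap. Both cKO arrays lay above both het arrays for Ifit2, Oas1a, Rsad2 and Tap1, 4 of 17, where 8.18% of all tested genes did so. Both lay below for Bst2, H2-D1 and Irgm1, 3 of 17, where 10.9% of all tested genes did so. None of these 7 passed in either fit. Under median centring 1 member in place of 3 lay below without overlap.

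**Figure D2:**
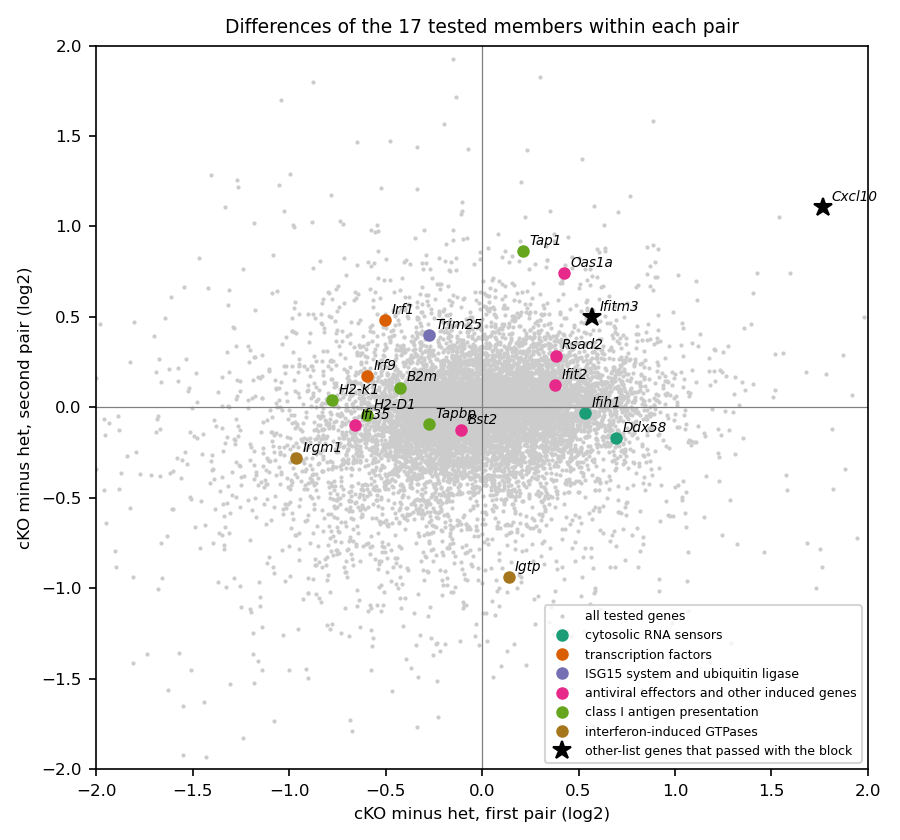
Difference of cKO minus het (log2) within the first pair on the x axis and within the second pair on the y axis, for 17 tested members coloured by role, for Cxcl10 and Ifitm3 (stars) and for all tested genes (grey; 74 lie outside the range of 2 on either axis). Members lie within the grey cloud in all 4 quadrants, with Tap1 and Oas1a in the upper right and Irgm1 in the lower left.

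Cytosolic RNA sensors detect viral RNA and signal through Mavs to induce interferon. Ifih1, which encodes the sensor MDA5 of long double-stranded RNA, had signals of 155 and 157 in cKO, against 106 and 161 in het. The groups overlapped, with het_1210 lowest. Its difference was 0.25 ± 0.34 (0.54 within the first pair and -0.03 within the second pair). Ddx58, which encodes RIG-I, had 327 and 253 in cKO, against 202 and 285 in het, and also overlapped. Its difference was 0.26 ± 0.26 (0.70 in the first pair and -0.17 in the second). Dhx58, which encodes their regulator LGP2, lay below the filter on all 4 arrays, at 57.0 and 41.1 in cKO and 44.5 and 40.6 in het.

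Among the transcription factors Irf1 was the member with the largest gap between the pairs. Irf1 is induced by interferon gamma and by inflammatory stimuli, and activates class I and immunoproteasome genes. Its signal was 576 and 5416 in cKO, against 816 and 3875 in het. The arrays of the second pair were high in both groups, 9.39-fold above the first pair in cKO and 4.75-fold in het, and a gap of over 2-fold between the pairs was seen for 3 of the 17 tested members and for 5.74% of all tested genes. Between the groups Irf1 differed by -0.01 ± 0.18, with -0.50 within the first pair and 0.48 within the second pair. Its promoter window holds a GAS, shown in capitals.
Irf1 (chr11:53769909-53769948, plus strand): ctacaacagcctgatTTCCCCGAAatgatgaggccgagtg

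Irf9, the DNA-binding part of the type I interferon complex, had 216 and 289 in cKO, against 327 and 256 in het. The groups overlapped, and the difference was -0.21 ± 0.26. Its partner Stat2 lay below the filter, at 35.3 and 74.6 in cKO and 45.4 and 58.2 in het. Irf7, which amplifies interferon production, lay just under the filter at 71.0 and 73.9 in cKO, against 57.4 and 53.8 in het; both cKO arrays were above both het arrays and no test was made. Trim25, a ubiquitin ligase that activates RIG-I, had 474 and 623 in cKO, against 573 and 472 in het. It differed by 0.06 ± 0.21, and by -0.35 when its probe sets were averaged. Usp18, which removes Isg15 from proteins and damps receptor signalling, was low in both groups at 8.82 and 5.22 in cKO and 7.94 and 6.48 in het.

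Antiviral effectors were mostly low in both groups. Of the 12 on the array, 5 were tested and 7 lay below the filter. Oas1a, which makes the signal that activates RNase L, had 140 and 108 in cKO, against 104 and 63.8 in het. Both cKO arrays were higher, by little, and het_1261 was lowest. Its difference was 0.59 ± 0.41 (0.43 and 0.74 within the pairs), with an adjusted p of 0.730 in limma with the block and a 95% interval from -0.25 to 1.42. Rsad2, which encodes viperin, had 81.9 and 98.0 in cKO, against 62.6 and 80.2 in het, with a difference of 0.33 ± 0.47. Its other probe sets lay below the filter and disagreed, at -0.41 (-0.57 and -0.25 within the pairs) and 0.80 (3.43 and -1.83). Ifit2, an RNA-binding inhibitor of viral translation, had 142 and 135 in cKO, against 109 and 124 in het, with a difference of 0.25 ± 0.36. On the probe sets tested, Oas1a, Rsad2 and Ifit2 were higher in cKO within both pairs, by less than their intervals can tell from 0.

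Bst2, which encodes tetherin, a membrane protein that holds back budding viruses, had 69.5 and 67.2 in cKO, against 75.0 and 73.3 in het. Its difference of -0.12 ± 0.50 became 0.01 under median centring and under quantile scaling. Ifi35 had 1604 and 801 in cKO, against 2536 and 858 in het. Its arrays of the first pair were the high ones in both groups, and the difference was -0.38 ± 0.18 (-0.66 and -0.10), with an adjusted p of 0.505 in limma with the block. Its other 2 probe sets differed by 0.18 and -0.21, so the probe sets disagreed in sign.

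Of the 7 effectors below the filter, Ifit1 and Oasl2 stood higher on both cKO arrays. Ifit1, which binds viral RNA caps, had 9.48 and 48.4 in cKO, against 4.23 and 9.38 in het. Oasl2, an Oas relative, had 7.19 and 32.1 in cKO, against 3.40 and 4.62 in het. In both genes the array KO_1261 stood above the other arrays. Ifit3, a partner of Ifit1, ran the other way, at 37.2 and 35.2 in cKO, against 57.2 and 47.5 in het. The dynamin-like GTPases Mx1 and Mx2, the ADP-ribosyltransferase Parp14 and Xaf1 overlapped between the groups, at signals between 2.78 and 63.9 over all arrays. Over the 15 members below the filter, 4 had both cKO arrays above both het arrays and 1 had both below, where 11.4% and 22.3% of all genes below the filter did so. MAS5 signals at this level are noisy on a log scale.

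The class I pathway held members that pointed in opposite directions. Tap1, a subunit of the peptide transporter, had 396 and 354 in cKO, against 342 and 194 in het. Both cKO arrays were higher, and het_1261 was the low array. Its difference was 0.54 ± 0.24 (0.21 and 0.86), which did not pass (adjusted p = 0.475 in limma with the block, and 1.0 without it), with a 95% interval from 0.04 to 1.03. Psmb9, an inducible subunit of the immunoproteasome, had 65.0 and 88.8 in cKO, against 14.3 and 32.4 in het. Both cKO arrays were above both het arrays, by 2.11 and 1.43 on the log2 scale within the pairs, but the mean lay below the filter. When all probe sets were tested, with the block, Psmb9 had an adjusted p of 0.721 in limma.

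Tap1 and Psmb9 are neighbours that run in opposite directions from a shared promoter. In RefSeq their starts are 225 bases apart and their windows share 275 bases. The Tap1 window (chr17:34187306-34187605, plus strand) is shown because both genes stood higher on both cKO arrays, with the bases between the starts in capitals. It holds neither the ISRE core nor the GAS.
Tap1 and Psmb9: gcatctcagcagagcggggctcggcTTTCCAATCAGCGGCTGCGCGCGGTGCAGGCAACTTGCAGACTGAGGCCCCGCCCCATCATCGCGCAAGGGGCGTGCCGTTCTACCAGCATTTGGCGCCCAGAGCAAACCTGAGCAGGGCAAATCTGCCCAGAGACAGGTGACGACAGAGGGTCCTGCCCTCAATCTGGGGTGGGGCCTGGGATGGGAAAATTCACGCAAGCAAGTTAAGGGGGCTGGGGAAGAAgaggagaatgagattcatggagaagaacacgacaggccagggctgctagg

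Other probe sets in the pathway were weak and disagreed. Psmb8, another inducible proteasome subunit, had 9.55 and 24.7 in cKO, against 6.59 and 13.1 in het on 1 probe set. Its other probe set had 3.41 and 3.50 in cKO, against 45.3 and 10.0 in het. The remaining 3 Tap1 probe sets lay below the filter, and their differences were -1.91, -0.04 and -1.71. Averaged over all of its probe sets, Tap1 differed by -0.78 and no longer lay above the filter.

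The peptide-loading and heavy chain genes were lower or level. B2m, the light chain shared by all class I molecules, had 2854 and 3562 in cKO, against 3828 and 3305 in het, so that the groups overlapped. Its difference was -0.16 ± 0.16, with a 95% interval from -0.47 to 0.16. Tapbp, which encodes tapasin, had 883 and 804 in cKO, against 1069 and 858 in het, with a difference of -0.18 ± 0.18. H2-D1, a classical heavy chain, had 1484 and 1779 in cKO, against 2241 and 1833 in het, with a difference of -0.32 ± 0.17 (-0.59 and -0.04). Its other probe sets above the filter differed by -0.46, -0.41 and -0.15, and none of them passed with the block. H2-K1, the other classical heavy chain, had 1230 and 1426 in cKO, against 2107 and 1386 in het, with a difference of -0.37 ± 0.18 (-0.78 and 0.04) and an adjusted p of 0.539 in limma with the block. Averaged over its probe sets, H2-K1 differed by -1.63 (adjusted p = 0.0875 in limma with the block). Its other probe sets differed by -1.30, -0.43 and -4.42, and those at -0.43 and -4.42 lay below the filter, so this mean rests largely on a weak probe set. On the probe set of highest mean signal of all 4 genes het_1210 was the highest array, and the difference was larger within the first pair.

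The second probe set of H2-K1, singled out after its values were seen, behaved otherwise. It had 333 and 417 in cKO, against 1432 and 595 in het, and the groups did not overlap. It fell by 1.30 ± 0.24 with the block (-2.10 and -0.51; adjusted p = 0.00225 in limma). The call was absent without the block (adjusted p = 1.0), with a robust prior (0.592), with no variance trend (0.736) and with no filter (0.194, with the block), and without het_1210 its difference was -0.67. The weakest H2-K1 probe set, below the filter, had 6.30 and 2.09 in cKO, against 260 and 38.8 in het. Of the 63 probe sets of the members, 27 were tested, and this was the 1 that passed with the block, where 0.862% of all tested probe sets did (0.373% with the robust prior, under which it did not pass). Heavy chain genes are similar in sequence and differ between mouse strains. Probe sets of this kind may read several of them, which was not tested, so the H2-K1 and H2-D1 values are uncertain. Srf and the class I members Tapbp, H2-K1, Psmb9, Tap1, Psmb8 and H2-D1 all lie on chromosome 17 in GRCm38.p6. The class I alleles of the embryos are not given in the sources used here, and whether they differed between the groups was not tested.

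**Figure D3:**
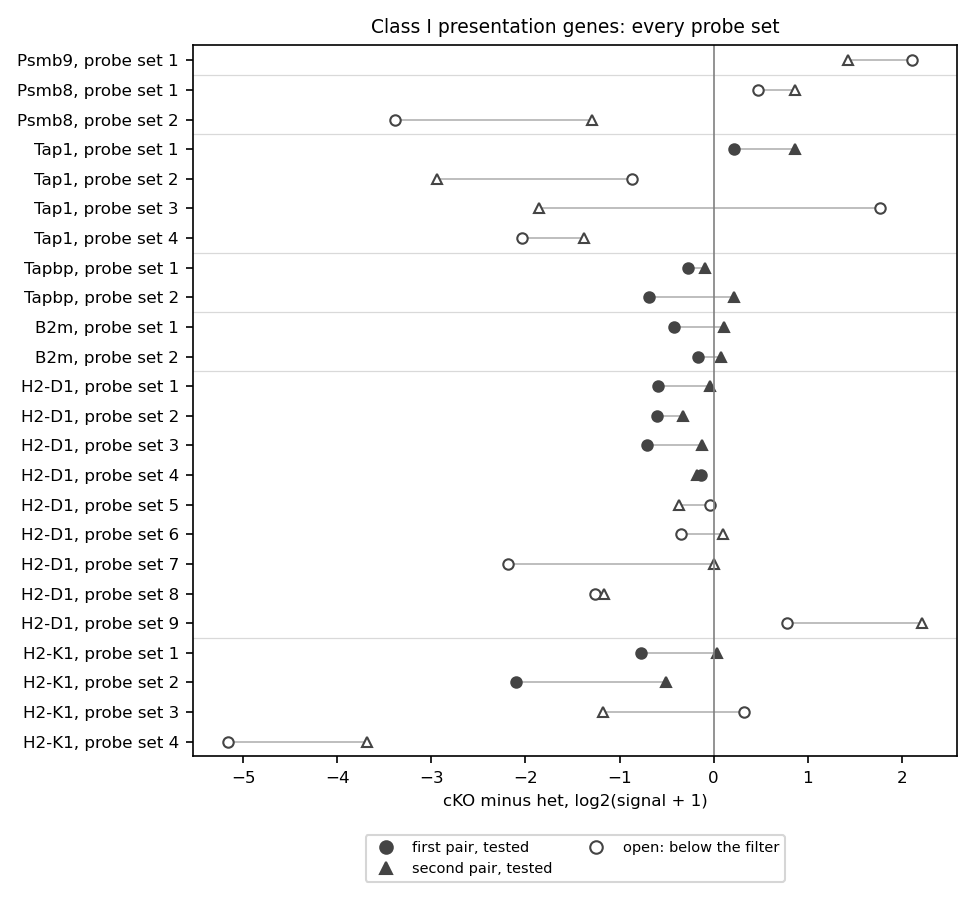
Difference of cKO minus het (log2 of signal + 1) for every probe set of the 7 class I pathway members, ordered within a gene by mean signal; circles, first pair; triangles, second pair; open symbols, below the filter. Probe sets of B2m, Tapbp and H2-D1 above the filter lie at or left of 0 within the first pair, the second H2-K1 probe set lies at -2.10 and -0.51, and the weak probe sets of Tap1 and Psmb8 spread to both sides.

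Markers of other cell types differed in the same arrays. Of 14 leukocyte and Langerhans cell markers 12 were lower in cKO, with summed signals of 504 and 796 in cKO, against 1112 and 1040 in het. Of these 14, 11 lay below the filter. Cd207, a Langerhans cell marker, was at 5.11 and 2.59 in cKO and 7.54 and 5.87 in het, and Ptprc was below the filter on all arrays. Of 8 dermal fibroblast markers 6 were lower, with sums of 34678 and 36063 in cKO, against 46478 and 39253 in het. Dcn, which was level between the groups, was the largest part of these sums on every array, and Pdgfra was higher in cKO. Endothelial markers were lower in cKO for 6 of 6 and melanocyte markers for 5 of 6, with 0 called with the block in either list. Over all tested genes 5946 of 11055 were lower in cKO. Of the 11 leukocyte markers below the filter, 5 had both cKO arrays below both het arrays and 1 had both above. Over all genes below the filter these shares were 22.3% and 11.4%. The median signal was also lower on the cKO arrays, at 63.7 and 75.5, against 69.3 and 82.5 in het. With the block 1 of the 3 leukocyte markers tested (Laptm5, by -1.47 ± 0.36) and 3 of the 8 fibroblast markers tested (Col3a1, Twist2 and Vim) were called lower, where 0.615% of all tested genes were. None of these 4 calls held under a robust prior (limma gave an adjusted p of 0.068 for Laptm5, 0.106 for Col3a1, 0.142 for Twist2 and 0.301 for Vim), under no variance trend or without the block. By the sums the gap was wider within the first pair for the leukocyte and fibroblast lists. The median difference of the tested markers was -0.97 and -0.21 within the pairs for fibroblasts, but -0.80 and -0.77 for leukocytes. On their probe sets of highest mean signal, H2-K1, H2-D1 and B2m differed by -0.78, -0.59 and -0.42 within the first pair, and by 0.04, -0.04 and 0.11 within the second. Other probe sets above the filter differed within the second pair by -0.51 for H2-K1, by -0.32, -0.12 and -0.17 for H2-D1, and by 0.08 for B2m. The part of these other cell types in the class I values was not tested, and fewer cells of a type and less RNA per cell cannot be told apart. The 7 class II genes on the array, which present peptides on professional antigen-presenting cells, had 4 tested genes with 0 called. The invariant chain gene Cd74 had 177 and 144 in cKO, against 168 and 281 in het. Its difference was -0.44 ± 0.30, and those of the protease gene Ctss, the peptide-exchange gene H2-DMa and the β chain gene H2-Ab1 were -0.26 ± 0.43, -0.61 ± 0.51 and 0.77 ± 0.53.

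The interferon-induced GTPases, which attack vacuoles of intracellular pathogens, did not pass in either fit. Irgm1 had 50.8 and 61.6 in cKO, against 100 and 75.0 in het. Both cKO arrays were below both het arrays, close to the filter, and the difference was -0.62 ± 0.51 (-0.96 and -0.28). Igtp had 195 and 42.3 in cKO, against 178 and 81.9 in het, so that the second pair was low in both groups. Its difference was -0.40 ± 0.41 (0.14 in the first pair and -0.94 in the second). Gbp2 and Gbp3, guanylate-binding proteins, lay below the filter and overlapped between the groups, between 18.0 and 38.3 on all arrays.

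Beyond the members, 94 further genes of the pathway were listed, of which 84 were on the array and 56 were tested. None passed without a block, and with the block 2 passed, both higher in cKO, against 0.253% of all tested genes called higher. The lists were chosen with earlier results of these data known, so this count does not set them apart from other genes. Cxcl10, a chemokine that draws T cells and is induced by interferons and by inflammatory signals, had 1600 and 10210 in cKO, against 468 and 4736 in het. Within each pair the cKO array was the higher one, but the arrays of the second pair were higher in both groups (6.38-fold in cKO and 10.1-fold in het), so the groups overlapped. Cxcl10 rose by 1.44 ± 0.17 with the block, a 2.71-fold difference (1.77 and 1.11 within the pairs; adjusted p = 8.21e-07 in limma with the block, 9.99e-06 with a robust prior, 1.0 without the block and 0.736 with the block and no variance trend). With 1 array left out the pairs are unbalanced between the groups, and the difference ranged from -0.23 without het_1210 to 3.11 without het_1261. Its window (chr5:92348840-92349139, minus strand) is shown with its single ISRE core in capitals.
Cxcl10: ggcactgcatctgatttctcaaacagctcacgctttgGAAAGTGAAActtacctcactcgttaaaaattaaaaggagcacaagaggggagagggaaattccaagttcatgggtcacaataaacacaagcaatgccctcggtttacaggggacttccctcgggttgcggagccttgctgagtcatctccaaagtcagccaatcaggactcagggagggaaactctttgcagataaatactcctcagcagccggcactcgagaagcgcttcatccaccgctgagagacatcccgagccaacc

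Ifitm3, a membrane protein that blocks virus entry, had 15983 and 20411 in cKO, against 10779 and 14443 in het, and both cKO arrays were above both het arrays. It rose by 0.53 ± 0.13 with the block (0.57 and 0.50; adjusted p = 0.0286 in limma), a 1.45-fold difference. The call held with a robust prior (0.0313) and ended without the block (1.0), with no variance trend (0.736), with a pseudocount of 16 (0.0878, with the block) with no filter (0.493, with the block) and in the fit that averaged the probe sets of each gene (0.193, with the block), where Ifitm3, with 1 probe set, kept its difference. The related Ifitm2 had 11094 and 9079 in cKO, against 12267 and 8474 in het, and differed by -0.02 ± 0.13. The Ifitm3 window holds 2 ISRE cores, shown in capitals, and a GAS that overlaps the downstream core.
Ifitm3 (chr7:141010710-141010749, minus strand): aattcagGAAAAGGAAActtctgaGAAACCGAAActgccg

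**Figure D4:**
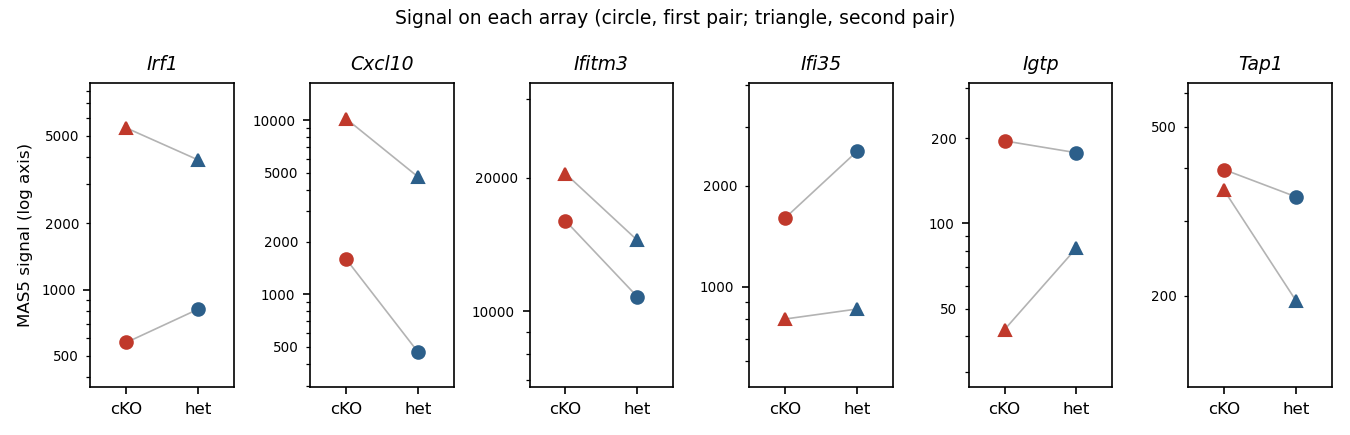
MAS5 signal (log axis) on each array for 4 members (Irf1, Ifi35, Igtp, Tap1) and for Cxcl10 and Ifitm3; circles, first pair; triangles, second pair; grey lines join arrays of a pair. In Cxcl10 and Ifitm3 both lines fall towards het, while Irf1 and Igtp are set mainly by the pair.

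The receptors and kinases upstream of the members were measured and did not pass. Of the 27 genes for ligands, receptors and signalling on the array, 23 were tested, with 0 called in either fit and a median difference of 0.07. Of the genes with the highest signals Ptpn2, a phosphatase that damps Jak signalling, differed by 0.09 ± 0.14 and Jak1 by 0.14 ± 0.15. The kinase gene Tbk1 differed by 0.29 ± 0.16, and the feedback inhibitor Socs3 by 0.36 ± 0.15 (adjusted p = 0.415 in limma with the block). Socs3 had 1482 and 8285 in cKO, against 1075 and 6930 in het, so that its arrays of the second pair were high in both groups, as they were for Irf1 and Cxcl10. Ifnar1 had 455 and 418 in cKO, against 434 and 343 in het, and Ifnb1, the gene for interferon beta, lay below the filter at 66.1 and 38.8 in cKO and 51.7 and 15.1 in het.

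Of the 37 other interferon-induced genes on the array, 18 were tested, and the 2 calls were Cxcl10 and Ifitm3. The median of the 18 was -0.04, with 8 higher and 10 lower. Of those with the highest signals besides the ones named, Lgals9, a galectin, differed by -0.24 ± 0.20. Of the 13 other class I genes and constitutive proteasome subunits on the array, 11 were tested with 0 called. The chaperone calreticulin (Calr) differed by 0.24 ± 0.13, calnexin (Canx) by 0.11 ± 0.13, and the constitutive subunits Psmb6 and Psmb7 by -0.16 ± 0.14 and 0.09 ± 0.14. Tap2, the partner subunit of Tap1, lay below the filter at 17.2 and 28.5 in cKO, against 112 and 72.2 in het, the opposite direction to Tap1.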

How the data were processed

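Total RNA of 4 samples was hybridised to expression arrays. The deposited values are array intensity on a linear scale. MAS5 is the summary method named per the submitters' processing notes, and the trimmed mean was 500 on every array, so only changes relative to it can be seen. For arrays, the 2 samples per group limit the precision. Of 45101 probe sets 64 controls were left out; 34945 had 1 gene symbol, 932 several and 9160 none, by the platform annotation, with symbols updated through the Entrez identifier. Values were taken as log2(signal + 1), and fold changes are on that scale. The filter was the median over probe sets of their mean log2 value. The 22518 probe sets above it entered limma 3.58.1 in R 4.3.3 (lmFit and trended eBayes, two-sided tests), and p-values were adjusted by Benjamini and Hochberg over these probe sets. The fit was checked on simulated data. All members were described by role; of each further list the genes called and the 4 with the highest mean signal were named, and other genes of these lists were named after their values were seen. The members and lists were chosen with earlier results of these data known. Promoters came from RefSeq (GRCm38.p6). Figures were drawn with matplotlib 3.10.9.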

Additional observations from a re-analysis of the deposited data

How the results depend on the processing

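No member passed under any of the 17 alternatives tried, which covered the block, scaling, pseudocount, filter, probe set choice and each array left out; 5 of them, which joined the replicate block to another choice, were chosen after seeing the data. The title numbers pair the samples only by number: deviations of same-numbered arrays correlated at 0.755, which may be technical, and no label says that they pair animals. With the replicate block 2 genes of the further lists passed against 0 without it; 2 passed with the robust prior, median centring or quantile normalization added, and 1 with a pseudocount of 16, no filter or averaged probe sets added, and 0 with the block and no variance trend (5.71% of all tested genes at an unadjusted p under 0.05 in limma). The count of members whose arrays did not overlap was, for those higher in cKO, 8 with no filter (where all 32 counted) and 2 with averaged probe sets, and, for those lower in cKO, 1 under median centring and from 4 to 8 with 1 array left out, against 4 and 3. Among the tested members, with all 4 arrays kept, signs turned for Irf1 (0.11 under median centring), Bst2 (0.0059 under median centring and 0.0079 under quantile normalization), Trim25 (-0.35 with averaged probe sets) and Tap1 (-0.78 with averaged probe sets). Among members below the filter they turned with averaged probe sets for Dhx58 (-0.07), Psmb8 (-0.84) and Xaf1 (0.38), and under median centring and quantile normalization for Stat2 (0.12 and 0.11) and Usp18 (0.06 and 0.18), and Stat2 was also at 0.01 with a pseudocount of 16. Median centring moved the median of all tested genes to 0.10, against -0.02. With 1 array left out the difference ranged from -0.045 to 0.55 for Ifih1, -1.63 to 1.61 for Irf1, -0.13 to 0.26 for Trim25, -1.16 to 0.40 for Ifi35, -0.32 to 0.0023 for B2m, -1.49 to 0.69 for Igtp and -0.23 to 3.11 for Cxcl10, as each such fit sets 1 array of a single pair against both. Other causes were not tested. For 15 of the 32 members the mean signal lay below the filter and no test was made.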
